A study of Mus musculus with 2 samples.

Results

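Genes of glycolysis and of the response to low oxygen were compared between mouse embryonic fibroblasts (MEFs) with both normal copies of Fut8 (Fut8+/+) and MEFs homozygous for its loss (Fut8-/-). The set was defined by gene name as 37 genes: enzymes of glycolysis, carriers of glucose and lactate, regulators of glycolytic flux, and the hypoxia-inducible factors (HIFs) with the enzymes that control them and some of their targets. It was read out as all probe sets whose annotated symbol was exactly 1 of these names. This gave 72 of the 45101 probe sets on the Affymetrix array and 34 of 18194 genes, while no probe set of exactly the name Gpi1, Eno1 or Ero1l was used here. There was 1 array per genotype, made from total RNA of cells grown in serum-containing medium at 5% CO2; the labels name the cells only as MEF and record no low-oxygen treatment, no MEF age and no strain. The submitters' design text speaks of 3 cultures per genotype, and the sources used here do not say whether the RNA of an array was pooled. Fut8, the fucosyltransferase that adds the core fucose of N-glycans, had signals of 191 in Fut8+/+ and 11.7 in Fut8-/- at the 1 of its 3 probe sets above background. The sources used here do not say where that probe set lies relative to the disruption.

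Glycolysis splits glucose into pyruvate in the cytosol, and lactate dehydrogenase then turns pyruvate into lactate, which lets the pathway run without oxygen. Most steps can be carried by more than 1 isoenzyme, and tissues differ in which form they use; cultured fibroblasts are strongly glycolytic. When oxygen is present, the prolyl hydroxylases Egln1, Egln2 and Egln3 mark the HIF alpha subunits for destruction. When oxygen falls the subunits persist, pair with Arnt and bind short DNA elements near genes for glycolysis, glucose uptake, vessel growth and collagen modification. HIF protein is controlled mainly by its stability, which an mRNA array does not measure.

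Signals are given as deposited, in arbitrary linear units. Ratios are log2 values of Fut8-/- over Fut8+/+, centred on the bulk of the probe sets (median log2 ratio -0.22 before centring) and floored at a scaled signal of 12.3, so that a ratio with 1 array below that floor is only a bound. A gene was taken as measured from a scaled signal of 39.1 upwards on its brighter array, and as higher or lower where the floored ratio reached 2-fold. Where a gene had several probe sets, the brightest stands for it. Without replicate arrays no test of genotype was possible, no p-value is given, and fewer cells of a type cannot be told apart from less RNA per cell. The nearest thing to an error here is technical: probe sets of the same gene differed in log2 ratio with an SD of 0.40 (5389 genes), which holds no variation between cultures.

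The cultures differed in more than Fut8. The Y-linked gene Eif2s3y had signals of 7.06 and 2845, and Xist, the X-inactivation transcript of female cells, 656 and 15.2, in Fut8+/+ and Fut8-/- respectively, so genotype, sex and culture cannot be told apart. Fibroblast markers such as Vim (11471 and 11110) and Col1a2 (11280 and 9433) were bright on both arrays. However, 4 of 11 measured fibroblast markers (36.4%) were at least 2-fold lower in Fut8-/- and 1 (9.09%) was higher. Among all measured genes 8.46% were lower and 6.08% higher. Thy1, Dcn, Lum and Fap were not measured. Of the markers of other cells, 2 of 10 endothelial, 2 of 9 macrophage and leukocyte, 3 of 10 epithelial, 3 of 10 skeletal muscle, 1 of 6 adipocyte and 4 of 9 neural genes found on the array were measured. Summed over all genes found, the signals of those lists in Fut8+/+ and Fut8-/- were 369 and 233 (endothelial), 252 and 154 (leukocyte), 121 and 311 (epithelial), 169 and 152 (muscle), 89.2 and 55.8 (adipocyte) and 838 and 205 (neural). Defining genes of these lineages, among them Ptprc, Pecam1, Cdh1, Myog, Adipoq and Snap25, lay below the floor on both arrays. Others did not: the epithelial genes Krt19 (2.08 and 155) and Dsp (5.07 and 71.1) were at least 14.6-fold and 6.70-fold higher in Fut8-/-, and Epcam (44.9 and 15.9), the muscle gene Des (55.9 and 10.2) and the adipocyte gene Pparg (61.4 and 20.3) were lower by at least 2-fold. Ckm, a muscle gene, was 2.27-fold higher (22.8 and 44.6), and the part of these cell types in the members' values was not tested.

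The glycolytic enzyme genes Aldoa, Tpi1, Gapdh, Pgk1, Pgam1 and Ldha were at nearly the same level in both genotypes, while Eno1 and Gpi1 were not read. Some other members, among them isoenzymes such as Hk2, HIF-pathway genes and HIF targets, differed, in both directions. Of the 34 genes found, 30 were measured, and 21 of these lay within 2-fold. The 6 that were at least 2-fold lower in Fut8-/- were Egln3, Eno2, P4ha2, Vegfa, Hk2 and Ldhb, and the 3 that were at least 2-fold higher were Pfkfb3, Epas1 and Ankrd37. Lower genes were thus 6 of 30, where 8.46% of all 10165 measured genes were lower, and higher genes 3 of 30, where 6.08% were higher. Past 2-fold either way were 9 of 30 members and 14.5% of all genes. The median log2 ratio of the members was 0.08, beside 0.00 for all genes, and 16 members lay above 0 and 14 below. Without centring the split was 7 lower (Hif1a added) and 2 higher (Ankrd37 lost, at 0.97). Of all 10195 genes then measured, 11.8% were lower and 4.08% higher. The uncentred median was -0.14 for the members and -0.23 for all genes. Slc2a3, Slc16a3, Car9 and Adm were not measured, with no signal above 24.6 on either array.

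**Figure D1:**
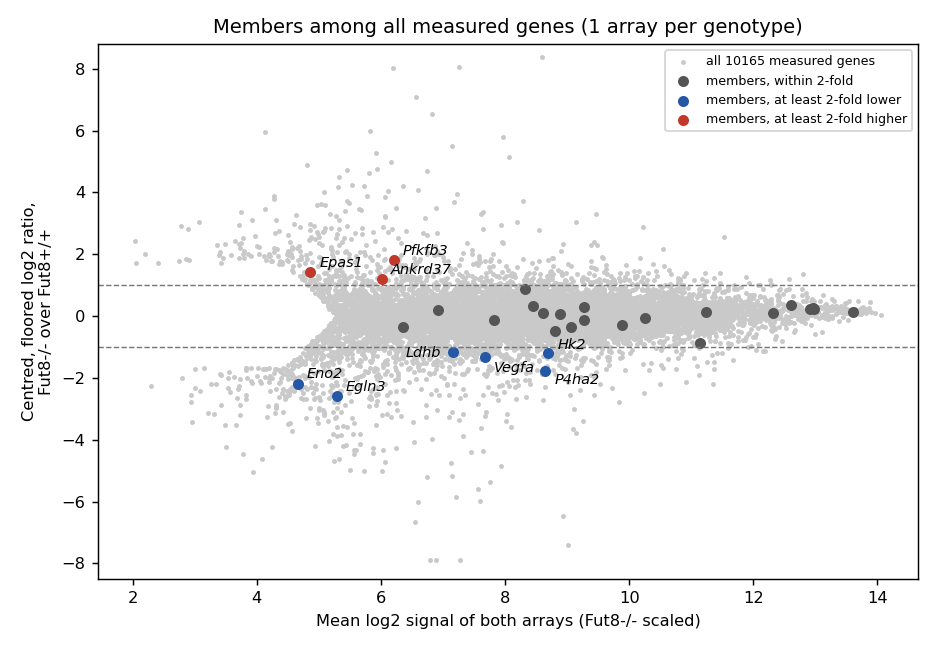
Centred, floored log2 ratio of Fut8-/- over Fut8+/+ (vertical axis) against the mean log2 signal of both arrays (horizontal axis), 1 point per measured gene; grey points are all 10165 genes, coloured points the 30 measured members, dashed lines 2-fold. The 9 named members lie outside the dashed lines, and the members with the brightest signals sit on the right close to 0.

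Brighter members passed 2-fold less often than dimmer ones, as brighter genes did among all genes. In a split by signal chosen after the values were seen, 12 members reached a scaled signal of 670, the pooled 90th percentile, on the brighter array, and 1 of them, P4ha2, passed 2-fold; among all genes as bright 8.94% did. Of the 18 dimmer measured members 8 passed 2-fold, where 17.1% of all dimmer measured genes did. The plot of the members among all genes shows both groups.

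The starts of the genes that passed 2-fold are shown to let the HIF-binding letters be read in them. HIF dimers bind a core that reads ACGTG or GCGTG on either strand. Of the 9 genes, 6 have a single start in the RefSeq promoter table (GRCm38.p6), which gives 250 bases before to 50 after it. They are printed 5′ to 3′ along the gene, with each match to the core on either strand in capitals; a match on the opposite strand appears as its reverse complement, and neighbouring matches can run together. Hk2 lies at chr6:82774405-82774704, minus strand; Ldhb at chr6:142507908-142508207, minus strand. Eno2 is at chr6:124769624-124769923, minus strand, and Egln3 at chr12:54203825-54204124, minus strand. P4ha2 lies at chr11:54100674-54100973, plus strand. Ankrd37, the 1 higher gene of the 6, is at chr8:45999801-46000100, minus strand.
Hk2: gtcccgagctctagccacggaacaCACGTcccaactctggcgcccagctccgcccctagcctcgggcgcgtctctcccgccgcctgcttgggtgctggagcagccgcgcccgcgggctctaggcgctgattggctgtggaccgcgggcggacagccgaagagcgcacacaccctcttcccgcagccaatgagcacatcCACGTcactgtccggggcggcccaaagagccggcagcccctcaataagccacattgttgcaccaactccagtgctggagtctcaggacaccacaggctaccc
Ldhb: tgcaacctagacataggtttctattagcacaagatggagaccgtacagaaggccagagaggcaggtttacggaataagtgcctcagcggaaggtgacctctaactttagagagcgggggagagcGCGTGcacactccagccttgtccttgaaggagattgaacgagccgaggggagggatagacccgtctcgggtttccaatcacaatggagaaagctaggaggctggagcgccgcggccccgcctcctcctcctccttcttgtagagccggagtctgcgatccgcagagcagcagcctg
Eno2: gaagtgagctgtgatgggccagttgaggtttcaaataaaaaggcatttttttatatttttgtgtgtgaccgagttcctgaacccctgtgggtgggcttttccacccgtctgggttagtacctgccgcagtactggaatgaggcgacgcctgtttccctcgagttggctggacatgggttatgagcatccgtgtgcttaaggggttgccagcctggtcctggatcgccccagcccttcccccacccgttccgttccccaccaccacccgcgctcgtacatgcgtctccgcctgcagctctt
Egln3: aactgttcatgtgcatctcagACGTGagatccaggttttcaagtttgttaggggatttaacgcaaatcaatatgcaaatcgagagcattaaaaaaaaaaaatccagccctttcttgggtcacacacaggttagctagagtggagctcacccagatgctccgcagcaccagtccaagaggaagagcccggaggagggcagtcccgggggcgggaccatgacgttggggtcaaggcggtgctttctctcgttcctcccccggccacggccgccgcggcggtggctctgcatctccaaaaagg
P4ha2: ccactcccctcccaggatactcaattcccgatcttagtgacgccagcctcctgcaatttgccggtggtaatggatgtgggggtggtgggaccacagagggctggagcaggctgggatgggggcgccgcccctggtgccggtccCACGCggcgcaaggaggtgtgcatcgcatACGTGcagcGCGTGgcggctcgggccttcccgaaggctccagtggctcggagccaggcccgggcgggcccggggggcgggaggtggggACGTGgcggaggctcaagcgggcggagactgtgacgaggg
Ankrd37: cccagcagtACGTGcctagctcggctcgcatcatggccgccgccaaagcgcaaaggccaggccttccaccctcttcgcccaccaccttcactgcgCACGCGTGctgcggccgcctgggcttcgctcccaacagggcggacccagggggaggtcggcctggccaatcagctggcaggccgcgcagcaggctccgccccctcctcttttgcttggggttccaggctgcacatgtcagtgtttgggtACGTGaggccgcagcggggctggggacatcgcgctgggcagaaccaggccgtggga

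P4ha2 and Ankrd37 each held 4 matches, Hk2 held 2, Egln3 and Ldhb 1 each, and Eno2 none. In Hk2 they begin 226 and 52 bases before the start, in Egln3 229 bases before it, and in Ankrd37 the match nearest the start begins 6 bases before it. Pfkfb3 has 2 starts in the table, both with a match, and Vegfa 2 starts, 1 with matches; Epas1 was not in the table. By gene, the letters stood in at least 1 window of 5 of 6 lower members, of both higher members with an entry, and of 20 of 21 members within 2-fold. Over all 50 windows of the members the share was 80.0%, against 43.8% of all 32851 windows and 63.7% of the 10627 windows of measured genes. By gene it was 91.2% of the members with an entry and 69.9% of measured genes. The core contains a CG step, and the windows of members and of measured genes held a median of 20 and 21 such steps, against 7 for all windows. The matches are a description of these letters, not of bound sites.

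At the head of glycolysis, the hexokinases trap glucose in the cell by phosphorylating it. Hk1, the broadly expressed form, had signals of 654 in Fut8+/+ and 511 in Fut8-/-, a log2 ratio of -0.14. Hk2, the insulin- and HIF-responsive form, had 631 and 237 at its only probe set, a 2.29-fold lower signal in Fut8-/-. The log2 ratios of both forms were 1.06 apart. The 3 phosphofructokinase genes, whose enzymes catalyse the committed step, lay together: Pfkl went from 558 to 587 (0.29), Pfkm from 312 to 338 (0.33) and Pfkp from 236 to 185 (-0.13).

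Aldolase and several enzymes of the lower pathway differed little. Aldoa, the main aldolase, which cleaves fructose bisphosphate, had signals of 4947 and 4536, and its 5 probe sets had log2 ratios between 0.02 and 0.24. All 5 are named as sets whose probes may also match other transcripts, so the Aldoa signal may include related sequences. Some Tpi1 and Pgk1 probe sets are named so too, but not their brightest. Triosephosphate isomerase (Tpi1) had 7447 and 7441, phosphoglycerate kinase (Pgk1) 7308 and 7454, and phosphoglycerate mutase (Pgam1) 5553 and 6068. Their centred log2 ratios were 0.22, 0.25 and 0.35. Ldha, the lactate dehydrogenase form that favours lactate production, had 7147 and 7202 (0.23). Gapdh was read only by its 3 array control probe sets, with ratios from -0.01 to 0.14, and its brightest gave 11844 and 11205. Probe sets named for Gapdh together with other genes were not used. They gave 0.12 (9585 and 8950), -0.58 (328 and 189) and -0.51 (46.9 and 28.3). By their brightest probe sets used, Aldoa, Tpi1, Pgk1, Pgam1, Ldha and Gapdh, all 6, lay within 1.27-fold. The size of these small values depended on the scaling, and for some genes the sign did too. Without centring Aldoa stood at -0.13, Gapdh at -0.08, Tpi1 at -0.0, Ldha at 0.01, Pgk1 at 0.03 and Pgam1 at 0.13. After loess Aldoa and Gapdh stood at -0.02 and -0.03, while Tpi1 (0.08), Ldha (0.09), Pgk1 (0.11) and Pgam1 (0.22) stayed above 0. The control probe sets of beta-actin gave 0.06 to 0.17 after centring, in the range of these enzymes.

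Ldhb and Eno2 lay apart from these, though Eno1, the other listed enolase, was not read. Ldhb, the lactate dehydrogenase form that favours lactate use, had signals of 214 and 82.6, a 2.22-fold lower signal in Fut8-/-. Its 4 probe sets all lay past 2-fold, from -1.76 to -1.15, and its log2 ratio was 1.38 below that of Ldha. Eno2, the enolase known from neurons, had signals of 56.5 and 9.72, the latter under the floor, and was lower by at least 4.57-fold. With the floor at the 60th percentile its log2 ratio was -0.53 and no longer past 2-fold. Neural marker genes were lower on the same array, with Nes at 522 and 93.9, Tubb3 at 100 and 22.4 and Sox2 at 119 and 2.36, while Map2 (48.2 and 66.5) was not and Snap25 and Stmn2 lay under the floor on both; their part in the Eno2 value was not tested. Aldoc, the aldolase known from brain, had 93.5 and 62.2 (-0.37).

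**Figure D2:**
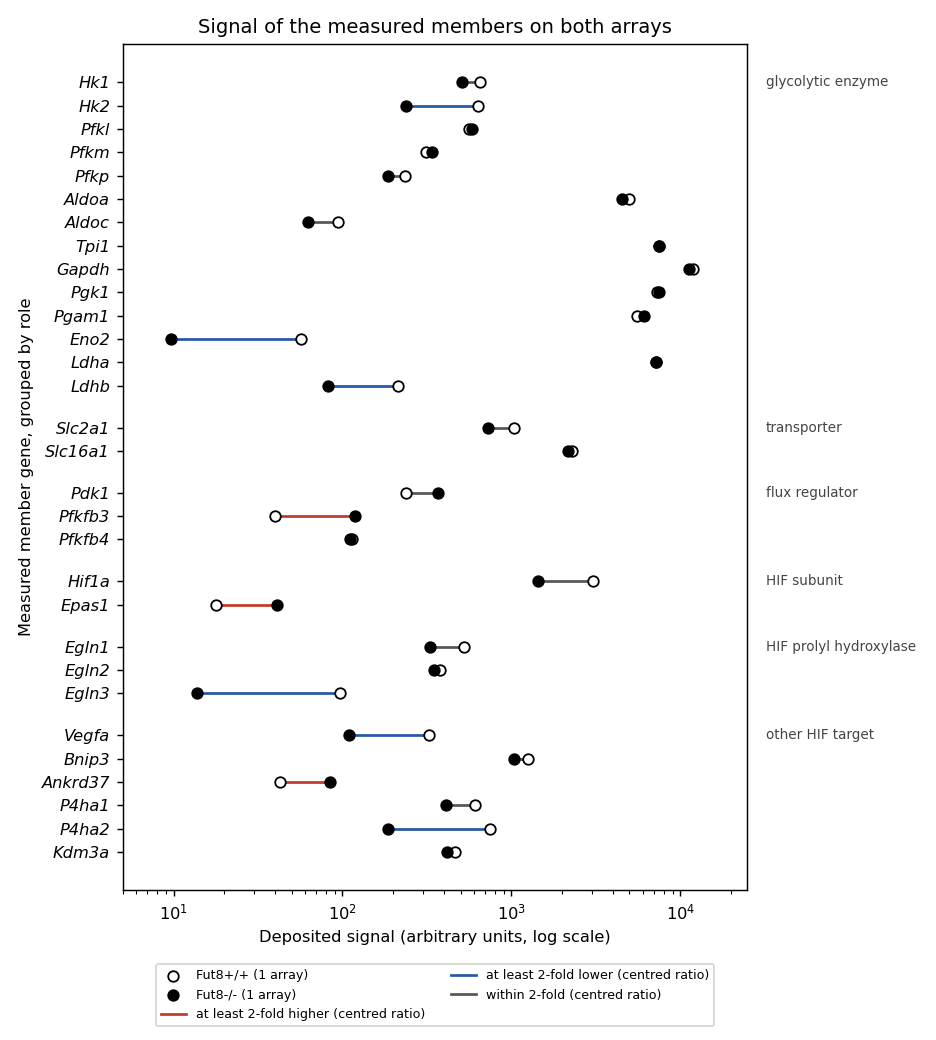
Deposited signal (horizontal axis, log scale) of the 30 measured members, grouped by role; open circles are the Fut8+/+ array, filled circles the Fut8-/- array, and the colour of the joining line shows whether the centred ratio passed 2-fold. The circles of Tpi1 and Ldha overlap almost fully, and those of Eno2, Egln3 and P4ha2 lie farthest apart.

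Of the 4 carriers of glucose and lactate, both measured ones lay within 2-fold. Slc2a1, the basal glucose carrier GLUT1, had signals of 1036 and 732, and its 3 probe sets agreed closely, from -0.35 to -0.28 on the log2 ratio scale. Slc16a1, the broadly expressed lactate carrier MCT1, had 2296 and 2155 (0.13, and -0.09 without centring). Slc16a3, the lactate exporter MCT4 and a HIF target, was too dim to count as measured, at 24.6 in Fut8+/+ and 7.83 in Fut8-/-, a bound of -0.99. The high-affinity glucose carrier Slc2a3 was not measured either (11.7 and 13.4 at its brightest probe set).

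The 3 regulators that steer carbon into or away from glycolysis all had ratios above 0, and 1 of them passed 2-fold. Pfkfb3 makes fructose 2,6-bisphosphate, the strongest activator of phosphofructokinase, and rests on a dim signal here. Its signals were 39.7 and 119, a 3.49-fold higher value in Fut8-/-, and its second probe set was also higher, from under the floor at 7.56 to 22.9. Pfkfb4, a related enzyme, had 114 and 111 (0.18, and -0.04 without centring). Pdk1 closes the pyruvate dehydrogenase gate to the mitochondrion, and its signals were 237 and 369, a 1.81-fold difference that did not reach 2-fold. The 3 Pdk1 probe sets with a ratio gave 0.86, 0.87 and 1.11, the last of them past 2-fold.

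Within the HIF system itself the ratios of both alpha subunits lay on opposite sides of 0. Hif1a, the main alpha subunit, had signals of 3040 in Fut8+/+ and 1431 in Fut8-/-, which is 1.83-fold lower after centring (-0.87) and past 2-fold without it (-1.09). A second bright probe set of Hif1a, with 646 and 165, gave -1.75. Epas1, which encodes the HIF-2 alpha subunit and is known from endothelium, was dim, at 17.9 and 40.7, and 2.65-fold higher in Fut8-/-. Its value depended on the floor, with a log2 ratio of 0.28 at the 60th percentile. Of 10 endothelial markers only 2 were measured, Egfl7 with a log2 ratio of -0.55 and Eng with 0.47. Pecam1 lay under the floor on both arrays (8.97 and 0.630). The part of endothelial cells in the Epas1 value was not tested.

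Of the 3 prolyl hydroxylases that tag HIF for destruction, Egln3 was the 1 past 2-fold. Its signals were 96.7 and 13.7, 6.07-fold lower in Fut8-/-. Its second probe set went from 24.6 to 1.08, a bound of -0.99. Since the Fut8-/- signal is close to the floor, the size depends on it: the log2 ratio was -1.31 with the floor at the 60th percentile and -1.80 as the median over both probe sets. Egln1, the main oxygen sensor of most cells, had 528 and 328 (-0.47, and -0.28 at its other probe set), and Egln2 377 and 350 (0.11, and -0.11 without centring).

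**Figure D3:**
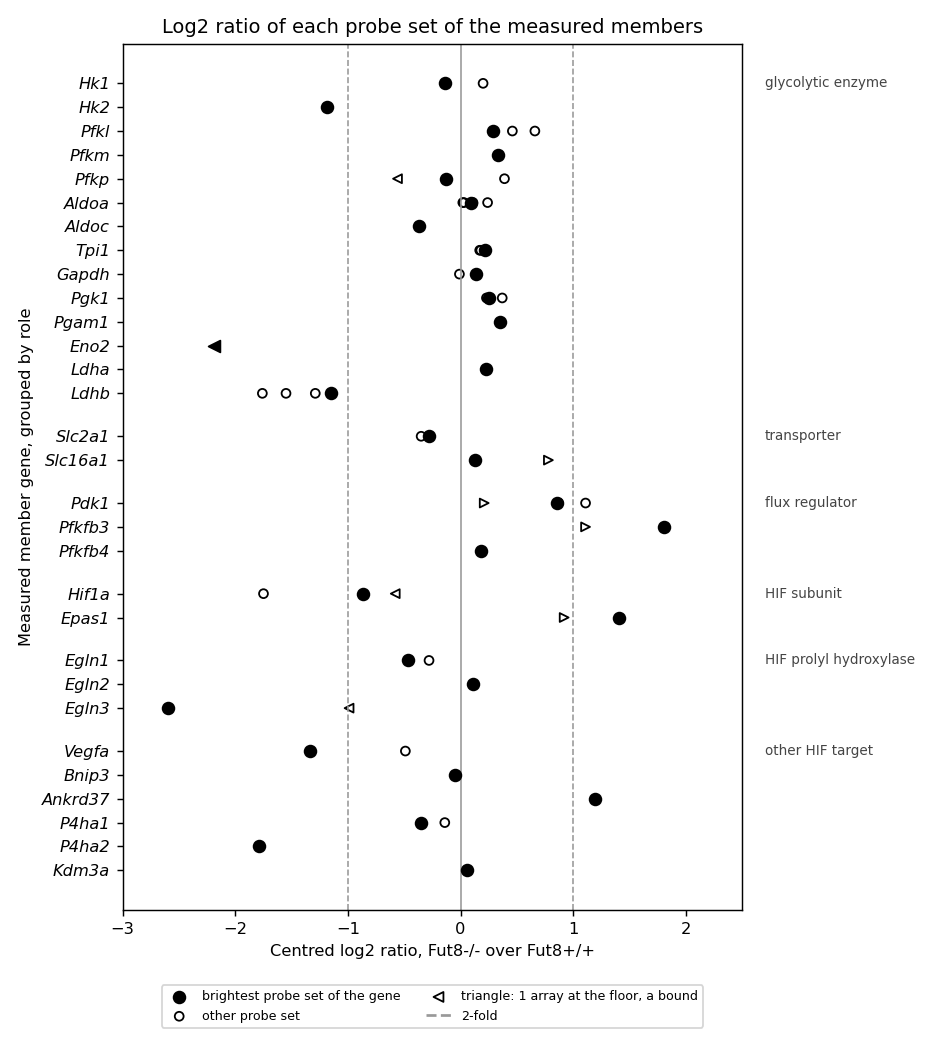
Centred log2 ratio of Fut8-/- over Fut8+/+ (horizontal axis) for each probe set of the measured members, grouped by role; filled symbols are the brightest probe set of a gene, open symbols its others, triangles ratios with 1 array at the floor (bounds), and dashed lines 2-fold; probe sets at the floor on both arrays are not drawn. All 4 Ldhb symbols lie left of the 2-fold line, both bright Hif1a symbols lie left of 0, and the Aldoa, Tpi1, Gapdh and Pgk1 symbols cluster near 0.

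The other HIF targets split 3 ways. Vegfa, the vascular growth factor, had signals of 324 and 110, 2.53-fold lower in Fut8-/-, but its second and dimmer probe set (46.3 and 28.3) gave only -0.49, and the median of both was -0.92. P4ha2 and P4ha1 encode alternative catalytic subunits of the hydroxylase that modifies proline in collagen. P4ha2 had 747 and 185 at its only probe set, 3.46-fold lower, while P4ha1 had 609 and 410 (-0.35). Of the collagen and matrix genes among the fibroblast markers, Col1a1 (2832 and 941), Col5a1 (2515 and 725) and Fn1 (4734 and 1254) were at least 2-fold lower. Col3a1 (-0.36), Sparc (-0.1) and Col1a2 (-0.04) lay within 2-fold. The summed signal of the 15 fibroblast markers was 50455 and 41333, and their part in the P4ha2 value was not tested. Ankrd37, a small ankyrin-repeat gene and HIF target, was 2.29-fold higher, from 42.7 to 83.9.

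Among further HIF targets, Bnip3 and Kdm3a were close to 0. Bnip3, which acts in mitophagy and is a standard hypoxia marker, had 1253 and 1038 (-0.05). Kdm3a, a histone demethylase induced by HIF, had 465 and 416 (0.06, and -0.16 without centring). The carbonic anhydrase Car9, which is hardly expressed without active HIF in most cells, was too dim to count as measured, at 13.3 and 5.80, as was the vasodilator peptide gene Adm, at 18.3 and 14.0. Ero1a, the current RefSeq name of the listed Ero1l and outside the exact-name rule, was looked up after the values were seen: it encodes the oxidase that drives disulphide formation in the endoplasmic reticulum and had 481 and 256 (-0.69).

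The log2 ratios of related genes lay closer together in some sets than in others. Across the 8 sets with at least 2 measured forms, the gap between the extreme log2 ratios was smallest for the aldolases and phosphofructokinases. For them it was 0.46 and 0.47, or 1.14 and 1.15 times the SD among probe sets of the same gene. The gap was 1.06 for the hexokinases, 1.38 for the lactate dehydrogenases, 1.44 for the collagen prolyl hydroxylases and 1.63 for the PFKFB enzymes. It was 2.27 for the HIF alpha subunits and 2.71 for the Egln enzymes, but both rest on signals near the floor, since with the floor at the 60th percentile Epas1 stood at 0.28 and Egln3 at -1.31. Levels are not compared between genes, since the brightness of a probe set depends on its own probes.

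**Figure D4:**
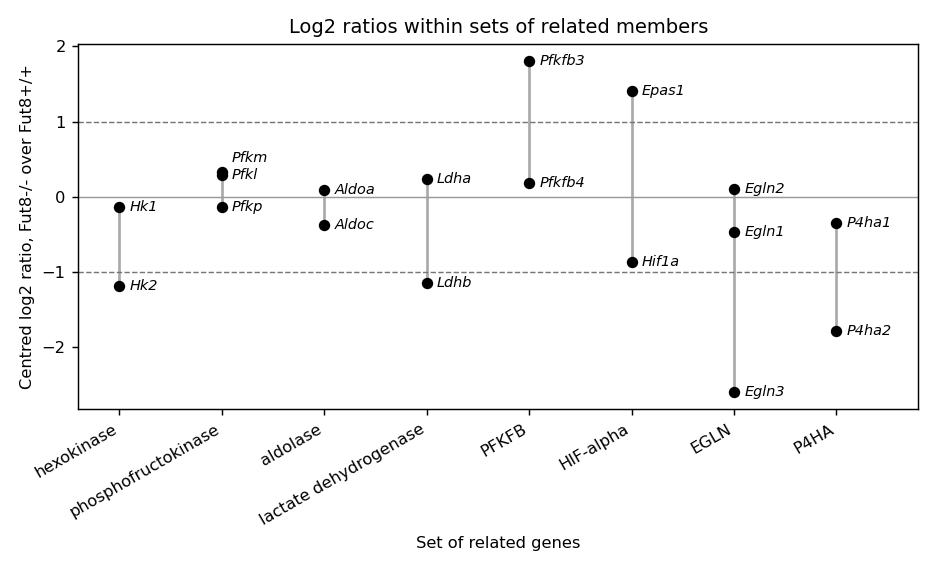
Centred log2 ratio of Fut8-/- over Fut8+/+ (vertical axis) of related members, 1 column per set and 1 point per gene, with dashed lines at 2-fold. The grey line spans each set, from 0.46 for the aldolases to 2.71 for the Egln enzymes.

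Genes next to the pathway were read from further lists. Their counts stand beside the 6.08% of all measured genes that were at least 2-fold higher and the 8.46% that were lower. Of 23 measured genes in a list of other glycolysis and pyruvate genes, 2 (8.7%) were at least 2-fold higher, 3 (13.0%) lower and 18 within (median -0.12). Pdk4, the pyruvate dehydrogenase kinase of fasting and fat use, was 11.4-fold higher (22.3 and 219), so that Pdk4 and Pdk1 lay on the same side while Pdk3 did not differ (827 and 737, a log2 ratio of 0.05). Eno3, the muscle enolase, was 2.67-fold lower (1319 and 425). Eno2 was lower too, by a bound of at least 4.57-fold that depended on the floor. The glucose carriers Slc2a10 (at least 3.71-fold, 45.9 and 2.13) and Slc2a6 (2.38-fold, 133 and 47.9) were lower. Pkm, the pyruvate kinase of the last step, had 2452 and 2267 (0.11).

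The pentose phosphate list covers the branch that makes ribose and NADPH from glucose 6-phosphate. Of its 12 genes 11 were found and 9 measured, and G6pdx was not among the 9. All 9 lay within 2-fold, but their median log2 ratio was 0.56. That median is given only after centring, which removed the shift of -0.22. The deposited signals of the genes found summed to 13423 in Fut8+/+ and 16899 in Fut8-/-. Transketolase (Tkt) had 4500 and 7061 (0.87), Prps2 762 and 1155 (0.82), Pgd 1864 and 2800 (0.81) and Rpia 646 and 902 (0.70), whereas Rpe (-0.37) and Taldo1 (-0.34) lay below 0. In the TCA cycle list 17 of 18 genes lay within 2-fold (median -0.03). The exception was Pck2 (1134 and 358, 2.73-fold lower), the mitochondrial PEP carboxykinase, which feeds off the cycle; Sdha (0.79), Fh1 (0.46) and Dld (-0.42) followed.

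Of 14 measured genes in the list of HIF partners and oxygen-sensing machinery, 1 (7.14%) was at least 2-fold lower, Arntl (226 and 80.0), a clock factor related to Arnt. Siah1a (-0.92) and Cul2 (-0.87) were lower within 2-fold and Rbx1 was at 0.70, while Vhl, the subunit that recognises hydroxylated HIF, was at -0.12. In the list of 32 other measured HIF targets 4 were higher (12.5%) and 3 lower (9.38%), with a median of 0.00. Among all measured genes the shares were 6.08% and 8.46%. Lox, the lysyl oxidase (2929 and 4.09), Vldlr (75.5 and 4.74) and Car12 (140 and 35.7) were lower, and Ak4, a mitochondrial adenylate kinase, was at least 5.21-fold higher (8.27 and 55.3). Cp, Tfrc and Edn1 were the other 3 higher ones.

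**Figure D5:**
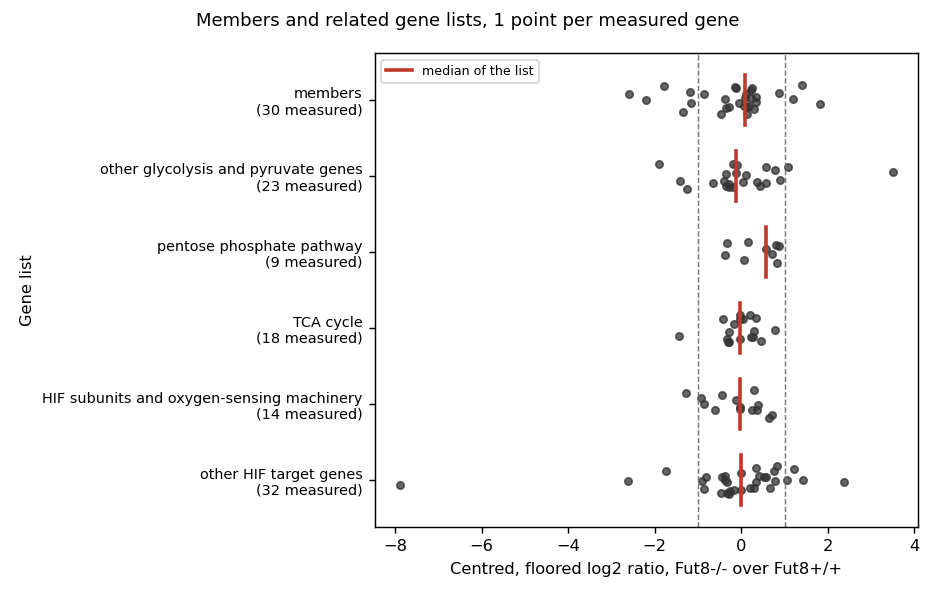
Centred, floored log2 ratio of Fut8-/- over Fut8+/+ (horizontal axis) for the members and the 5 related lists (vertical axis), 1 point per measured gene with vertical jitter; red bars are list medians and dashed lines 2-fold. The pentose phosphate points lie mostly right of 0 with a median of 0.56, and the medians of the other lists lie between -0.12 and 0.08.

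Position on the chromosomes was set beside the members, since the median ratio of some chromosomes lay off 0 on these arrays. Hif1a and Egln3 both lie on chromosome 12, whose 361 measured genes had a median log2 ratio of -0.38. The 20 measured genes nearest to Egln3 had a median of -0.55 with 3 at least 2-fold lower, and those nearest to Hif1a -0.42, also with 3 lower. Over all measured genes 8.46% were at least 2-fold lower. The members' own ratios were -2.60 for Egln3 and -0.87 for Hif1a. Chromosome 7 had a median of -0.32, and its members Aldoa, Ldha, Egln2 and Bnip3 stood at 0.09, 0.23, 0.11 and -0.05. Chromosome 13 had a median of 0.56, and its member Pfkp stood at -0.13. Hk2, Eno2 and Ldhb are all on chromosome 6 (median -0.13). The measured members Tpi1 (0.22), Gapdh (0.14) and Kdm3a (0.06), which lay within 2-fold, are on it too. The neighbours of Ldhb had a median of -0.52 with 6 lower, whereas those of Hk2 (-0.06) and Eno2 (0.01) lay near 0. Pfkfb3, which was higher, had neighbours that were lower (median -0.78, with 7 at least 2-fold lower). Pdk1 had neighbours with a median of 0.62, Vegfa 0.39, and P4ha2 -0.09. Their part in the members' values was not tested.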

How the data were processed

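Total RNA of Fut8+/+ and of Fut8-/- cells was labelled with biotin and hybridised to 1 Affymetrix mouse array per genotype. The deposited signal intensity values, 1 per probe set on a linear scale, were made by the authors with GCOS, per the submitters' processing notes; version, algorithm, scaling target, detection calls and genome build are not stated in the sources used here. Median signals were 20.5 and 16.9, so scale and centring of the deposited values stay unknown.

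Ratios were centred on the 23885 probe sets above the 40th percentile of each array (Fut8-/- multiplied by 1.16), then floored at the pooled 40th percentile; measured means the brighter array at or above the pooled 60th percentile. Of the probe sets, 34958 had 1 gene symbol, 932 several and 9160 none; several-symbol ones were not used. Control probe sets (64) stood for a gene only for Gapdh. Genes were placed by identifier with RefSeq's GRCm38.p6 table (18033 of 18194 found); its order gave the 10 measured neighbours on each side. Promoter windows were found for 34 of 37 names. Their orientation was checked by the letters TATAAA at 40 to 21 bases before the start, found 655 times against 203 for the reverse complement.

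The number of arrays limits every value, and each of the 9 alternative settings changed 1 choice. Every measured member is named, with up to 4 genes per related list by absolute ratio; any other gene was picked with its values in view. The members, lists and settings were chosen with earlier results of these data known. The steps were tested on simulated data, but changes were placed only in brighter genes. Members as dim as Ankrd37, Egln3, Eno2, Epas1 and Pfkfb3 were therefore not covered by it. Python 3.11.15, numpy 2.4.6, pandas 2.3.3 and statsmodels 0.14.6 were used.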

Additional observations from a re-analysis of the deposited data

How the results depend on the processing

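Over 9 alternative settings, 258 of 263 values of the 30 measured members stayed on their side of 2-fold. Of the rest, 4 fell short of it, 1 passed it (Hif1a, -1.09 without centring) and 0 changed sign past it. Part of this was fixed in advance. Dropping or raising the limit on the brighter array changed only which genes counted as measured, so it could not move a ratio. Preferring probe sets not named as possibly matching other transcripts left every measured member at its main value. The floor at the 20th percentile moved only Eno2 (-2.32). Of the 9 members past 2-fold, 5 (Egln3, Hk2, Ldhb, P4ha2 and Pfkfb3) stayed past it under every setting that measured them. The others lost it once each: Ankrd37 without centring (0.97), Eno2 (-0.53) and Epas1 (0.28) with the floor at the 60th percentile, and Vegfa with the median over probe sets (-0.92). Hk2, P4ha2, Eno2 and Ankrd37 were each read by 1 probe set, so settings that choose among probe sets could not move them. With the brighter array required to reach the 75th percentile the higher members numbered 0 in place of 3. This was because Pfkfb3, Epas1 and Ankrd37 were then not measured, and 23 members were left with 4 lower. Of all 7410 genes measured at that limit, 4.48% were higher and 6.05% lower. The median of the members was 0.08, and -0.14 without centring, which moved the median of all genes to -0.23; after quantile normalization it was -0.03, and the cause was not tested. Counts over all 10195 genes measured without centring were 416 higher (4.08%) and 1205 lower (11.8%). With centring they were 618 (6.08%) and 860 (8.46%) of 10165. No paired analysis was possible because each genotype had 1 array, and no replicate could be left out. Signal near background limits Eno2, Epas1 and Egln3.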
